A study of Mus musculus with 19 samples.

Results

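The response of the mouse aorta to 24 h of angiotensin II (Ang II) was measured in mice whose smooth muscle cells kept the kinase IKKβ. The 10 IKKβ+/+ mice, of 19 in the series, were chosen by their labels alone, and tests covered the 14845 of 20408 listed genes that reached 10 normalized counts in at least 4 of the 19 mice. All 19 were male C57BL/6 ApoE-/- mice, which lack apolipoprotein E and are prone to atherosclerosis and to Ang II-driven aneurysm, aged 8 weeks and kept on regular chow. The IKKβ+/+ mice carried SMA-CreERT2, a tamoxifen-inducible Cre recombinase driven by the promoter of smooth muscle α-actin, on unfloxed Ikbkb alleles, and all had been given tamoxifen. Mice X2350, X2352, X2356, X2358 and X2359 received Ang II by osmotic pump for 24 h, at 500 to 1000 ng/min/kg as labelled, and mice X2370, X2372, X2373, X2376 and X2378 received saline by the same route, so pump surgery with its anaesthesia and analgesia was shared by both groups. For these mice the methods of the study name a single Ang II dose, the upper end of the labelled range. The IKKβ-/- mice, in which the same Cre deletes floxed Ikbkb in smooth muscle cells, numbered 5 with Ang II and 4 with saline. They were used for comparison, in the filter and in the shared estimate of the spread. Poly(A) RNA of the suprarenal aorta (SRA), the segment where aneurysms form in this model, was sequenced as 1 library per mouse. Values for single mice are given below in the order of mouse numbers just listed.

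Ang II is the effector peptide of the renin-angiotensin system. It acts on the Gq-coupled receptor AT1 of smooth muscle cells, raises cytosolic calcium and contracts the vessel, and it also acts on endothelial cells, fibroblasts and leukocytes. In the longer term it drives smooth muscle growth, matrix remodelling and recruitment of monocytes, and it stimulates the adrenal gland. IKKβ phosphorylates IκB proteins and so releases NF-κB, a family of transcription factors that activates cytokine, adhesion and interferon-related genes.

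The libraries held 12705850 to 16011117 reads in genes with Ang II and 14058578 to 19906694 with saline, recovered from the normalized counts. Markers of smooth muscle were abundant in all 10 mice, with Acta2 (smooth muscle α-actin) at 185889 to 301107 normalized counts with Ang II and 135100.2 to 208437 with saline, and Myh11 (smooth muscle myosin heavy chain) at 92938 to 124602 and 86309.5 to 107979. Ikbkb, which encodes IKKβ, was present at 684 to 779 and 594 to 791 and was not called (adjusted p = 0.633). Apoe, disrupted in all of the mice, stood at 25.8 to 136 and 30.4 to 143. The groups hold separate runs of mouse numbers and no batch is stated, so a batch and the treatment cannot be told apart. Each mouse is a separate animal. The p-values measure the spread between mice within the 4 groups, the IKKβ-/- mice included.

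A gene was called when limma's moderated test on log2(value + 1) gave an adjusted p below 0.1 and the fold exceeded 1.2 in either direction. Ang II moved 1286 of the 14845 genes past this rule, 8.66% of those tested, with 643 (4.33%) higher and 643 (4.33%) lower. With the 10 IKKβ+/+ mice fitted alone, 922 were called higher and 982 lower. Large falls were more numerous than large rises: 238 called genes were over 2-fold lower and 135 over 2-fold higher. The 5 Ang II-treated mice and the 5 saline-treated mice did not overlap at 1250 genes (8.42%), 794 of them called. The counts of calls and of genes without overlap in the lists below are to be read beside these shares. The median log2 fold change over all genes tested was 0.01, and 50.7% lay above 0.

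The size of the response differed between the treated animals. Over the called genes, X2350 lay 0.60 and X2358 lay 0.52 (median, log2 scale) beyond the midpoint between the group means on the Ang II side, against 0.18 for X2352, 0.22 for X2359 and 0.08 for X2356. The saline-treated mice lay between -0.39 and -0.27. These positions come from the genes that the same mice chose and are given as a description. The number of called genes was 428 without X2350, 444 without X2358 and 1915 without X2356. X2356 also stood apart at the 14 tested neuronal and Schwann cell markers. Their mean log2 value, minus the mean of the 10 mice, was 2.44 in X2356 and -0.88 to 0.41 in the others. The tissue content of X2356 was not tested. Among the saline-treated mice, 340 genes were called higher and 359 lower without X2376, and 294 and 331 without X2378, and 462 and 380 without X2373. The counts of the lists below moved with them in both directions: without X2356, for example, 8 immediate early genes, 10 collagen-modifying enzymes and 7 IL-6 family genes were called higher and 8 endothelial markers lower, against 3, 5, 3 and 5 with all of the mice. Genes of the body clock differed among the saline-treated mice, where Nr1d1 (REV-ERBα, a clock repressor) stood at 1132, 646, 4189, 3546 and 4235 normalized counts against 1557, 1621, 1082, 1473 and 1849 with Ang II. When a clock gene score was added to the fit, a step added once the data had been seen, 247 genes were called higher and 278 lower. For single genes and lists below, only the 10 IKKβ+/+ mice were left out 1 at a time. A call kept without any 1 mouse was kept without any of these 10.

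Genes with a mean of at least 50 normalized counts in either group were ranked by fold change. The 15 largest called rises and 15 largest called falls whose treated and saline-treated mice did not overlap were followed. Separation of the groups at these 30 genes was therefore fixed by the choice. Prg4 (ENSMUSG00000006014.16, chromosome 1, 150449412 to 150466165 on GRCm38) encodes lubricin, a mucin-like lubricating proteoglycan. It stood at 424, 381, 566, 3264 and 1081 normalized counts with Ang II and at 35.9, 32.5, 24.7, 150.0 and 140.3 with saline (log2 fold change 3.77, standard error 0.56, adjusted p = 0.00185). X2358 held the highest Prg4 value. Il11 (ENSMUSG00000004371.15, chromosome 7, 4772373 to 4782859), a cytokine of the IL-6 family, stood at 96.4, 12.8, 60.3, 922 and 36.8 with Ang II and 10.7, 10.3, 2.64, 8.54 and 4.78 with saline (log2 fold change 3.35, standard error 0.81, adjusted p = 0.0263). Il11 in X2358 was far above the other treated mice, and the lowest treated mouse was just above the highest saline-treated mouse.

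Adam12 (ENSMUSG00000054555.11, chromosome 7, 133883199 to 134232146), a membrane metalloproteinase of the disintegrin family, had 273, 138, 84.5, 524 and 211 normalized counts with Ang II and 45.2, 11.1, 29.1, 17.1 and 27.1 with saline (log2 fold change 3.07, standard error 0.54, adjusted p = 0.0049). Esm1 (ENSMUSG00000042379.8, chromosome 13, 113209659 to 113218098), which encodes the endothelial proteoglycan endocan, had 688, 990.5, 406, 2500.4 and 1102 and 61.9, 147, 141, 229 and 120.3 (log2 fold change 2.87, standard error 0.44, adjusted p = 0.00195). As the choice required, the groups were apart at both of these genes. Pgf, placental growth factor, was higher by a log2 fold change of 2.15 (standard error 0.52), and Mt2, a metal-binding metallothionein, by 2.82 (0.48). Ckm, the creatine kinase of muscle, was higher by 2.93 (0.41), with 278, 192, 94.3, 391 and 189 normalized counts against 57.9, 23.02, 27.3, 20.9 and 15.9. Of the remaining large rises, Rasl10b reached 2.91, Hmga1, a chromatin architectural protein, 1.86, Cdsn 1.87, Igfbp2 1.97, Masp1 2.12, and the gene models AC160336.1 and Gm12840 2.74 and 3.13. Hmga1 and both gene models can share reads with near-identical copies and are uncertain. The calls of Masp1, a protease of the lectin complement pathway, of Igfbp2, an IGF-binding protein, and of Cdsn were lost without X2358, that of Masp1 also without X2359 or X2370, and that of Cdsn also without X2350.

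**Figure D1:**
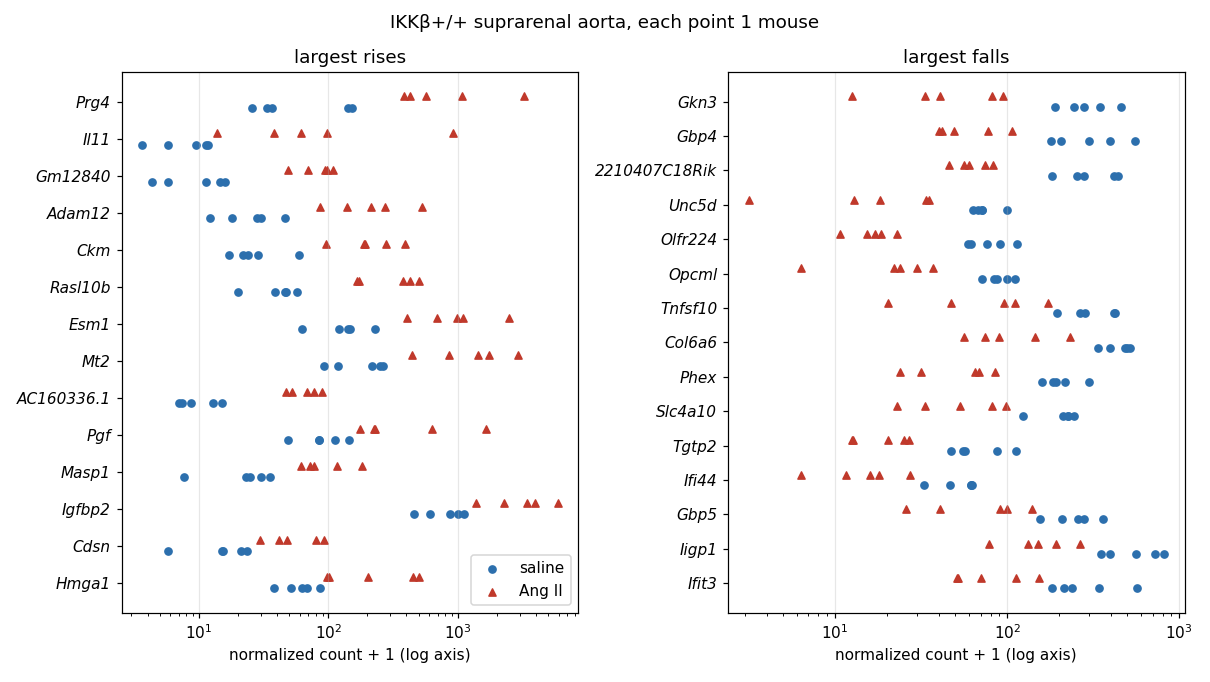
Genes among the 15 largest called rises and 15 largest called falls with a mean of at least 50 normalized counts in either group. Only genes whose groups do not overlap were ranked. Each gene has 1 row, with the normalized count plus 1 on a log axis. Each point is 1 mouse, coloured by treatment. Prg4 heads the rises (left) with a log2 fold change of 3.77 and Gkn3 the falls (right) with -2.79.

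Among the largest falls, 6 of the 15 belonged to interferon-induced families: Gbp4, Gbp5, Tgtp2, Iigp1, Ifi44 and Ifit3. Gkn3 (ENSMUSG00000030048.5, chromosome 6, 87383256 to 87388935), a gastrokine that is also made by arterial endothelium, headed the falls, with 32.1, 81.1, 93.2, 11.5 and 39.8 normalized counts with Ang II and 189.7, 277, 245, 457 and 345 with saline (log2 fold change -2.79, standard error 0.50, adjusted p = 0.00601). Unc5d, a netrin receptor, had 2.14, 34.2, 32.9, 17.2 and 11.9 and 62.6, 70.7, 67.0, 98.7 and 70.1 (log2 fold change -2.26, standard error 0.50, adjusted p = 0.0171). Tnfsf10, the death ligand TRAIL, had 19.3, 171, 109.7, 45.9 and 95.4 and 194, 283, 263, 421 and 418 (log2 fold change -2.11, standard error 0.45, adjusted p = 0.0137). As the choice required, the treated mice lay below all saline-treated mice at Gkn3, Unc5d and Tnfsf10. Col6a6, a collagen VI chain, was lower at -2.07, Phex, a membrane endopeptidase, at -2.06, Slc4a10, a bicarbonate transporter, at -1.99, and 2210407C18Rik and Olfr224 at -2.27 and -2.25. Opcml, a cell adhesion molecule, was lower at -2.12 but lost its call without X2350, X2358, X2370, X2373, X2376 or X2378.

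Interferon-γ acts through dimers of a STAT factor, which bind gamma-activated sites, and type I interferons act through a complex of STAT factors with IRF9, which binds interferon-stimulated response elements (ISREs). Basal interferon signalling keeps these genes on at a low level in unchallenged tissue. Promoters, taken as 250 bases before to 50 after each RefSeq transcription start on GRCm38.p6, were searched on both strands for the ISRE core, GAAA and a second GAAA separated by any 2 bases. A gene held the core if any of its promoters did. Of the guanylate-binding proteins and immunity-related GTPases with a promoter at hand, 9 of 10 held it (90%). So did 12 of 19 type I interferon-stimulated genes (63.2%) and 5 of 17 MHC class I presentation genes (29.4%). Of all 27025 genes with a promoter, tested here or not, 3.99% held the core. The gamma-activated site TTCNNNGAA, whose GAA end can overlap an ISRE, was held by 6 of the same 10 GTPase genes (60%) against 9.55% of all 27025. Among called members with a promoter, 8 of 9 GTPase, 8 of 12 type I and 2 of 12 class I genes held the ISRE core. A match describes letters in this window and shows no binding.
The windows below are shown because they belong to genes whose fall is described next. Each is written 5′ to 3′ on the gene's own strand with the core, or its reverse complement of spaced TTTC repeats, in capitals. They lie at chr11:49064243-49064312, minus strand (Tgtp2), chr11:58199492-58199561, plus strand (Igtp), chr3:142496739-142496808, plus strand (Gbp5), chr19:34583343-34583446, plus strand (Ifit3), chr4:156200845-156200926, minus strand (Isg15, with overlapping matches), chr2:122147518-122147587, plus strand (B2m) and chr13:74639819-74639888, plus strand (Erap1), all upstream of or across the annotated start.
Tgtp2: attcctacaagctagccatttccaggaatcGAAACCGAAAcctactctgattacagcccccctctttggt
Igtp: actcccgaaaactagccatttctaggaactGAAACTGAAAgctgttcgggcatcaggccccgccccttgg
Gbp5: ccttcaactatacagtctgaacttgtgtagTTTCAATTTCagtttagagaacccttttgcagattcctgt
Ifit3: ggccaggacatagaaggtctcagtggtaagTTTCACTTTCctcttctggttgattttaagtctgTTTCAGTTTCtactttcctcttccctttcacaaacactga
Isg15: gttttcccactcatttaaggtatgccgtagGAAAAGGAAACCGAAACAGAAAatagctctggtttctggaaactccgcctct
B2m: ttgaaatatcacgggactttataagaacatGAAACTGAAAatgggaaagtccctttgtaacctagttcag
Erap1: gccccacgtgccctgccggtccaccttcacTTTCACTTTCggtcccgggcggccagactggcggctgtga

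Guanylate-binding proteins and immunity-related GTPases, the interferon-γ-induced GTPases that attack vacuoles of intracellular pathogens, fell together. Of 16 tested members 15 were called lower and none higher, all 16 had a log2 fold change below 0, and the median was -1.59 against 0.01 over all genes. The groups did not overlap at 13 of the 16. Over all genes tested, 4.33% were called lower and the groups did not overlap at 8.42%. Gbp4 (ENSMUSG00000079363.7, chromosome 5, 105115767 to 105139586) had 48.2, 76.8, 105, 39.2 and 40.8 normalized counts with Ang II and 178, 551, 204, 393 and 299.7 with saline (log2 fold change -2.36, standard error 0.44, adjusted p = 0.00721). Iigp1, which encodes the GTPase Irga6, had 77.1, 191, 264, 132 and 150.1 and 352, 725, 392.1, 557 and 814 (log2 fold change -1.83, standard error 0.33, adjusted p = 0.00601). Igtp (ENSMUSG00000078853.8, chromosome 11, 58199556 to 58207591), which encodes Irgm3, had 43.9, 75.8, 112, 70.7 and 95.4 and 164, 359, 181, 295 and 210.4 (log2 fold change -1.59, standard error 0.30, adjusted p = 0.00721). At all 3 genes the highest treated mouse lay below the lowest saline-treated mouse, which the choice above had required of Gbp4 and Iigp1. Gbp3, Gbp5, Gbp7, Gbp9, Tgtp2 and Gm4951 had log2 fold changes of -1.48, -1.86, -0.99, -1.64, -1.88 and -1.59, and kept their calls without any 1 mouse. These are families of near-identical genes, among which reads may be split unevenly. The count of calls was 10 without X2350 or without X2358 and 12 with the clock covariate.

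Type I interferon-stimulated genes, which encode antiviral effectors and RNA sensors, were also lower. All 28 tested members had log2 fold changes below 0, with a median of -0.91. Of these 15 were called lower (53.6%, against 4.33% over all genes). Isg15 (ENSMUSG00000035692.7, chromosome 4, 156199455 to 156200796), a ubiquitin-like modifier, had 5.36, 26.7, 28.5, 15.3 and 16.9 normalized counts with Ang II and 43.9, 51.6, 79.3, 42.7 and 99.6 with saline (log2 fold change -1.82, standard error 0.37, adjusted p = 0.0117). Ifit3, which binds the antiviral complex of IFIT proteins, had 50.3, 111, 151, 50.6 and 69.6 and 182, 214, 340.1, 236 and 564 (log2 fold change -1.83, standard error 0.37, adjusted p = 0.0107), though it may share reads with Ifit3b. At both genes the groups did not overlap, which the choice above had required of Ifit3. Both kept their calls without any 1 mouse. The rest leaned on single mice: 2 of the 28 were called without X2350, 3 without X2358, 6 without X2378 and 7 with the clock covariate. Ifi44 (-1.86), Rtp4 (-1.32), a chaperone of taste receptors that interferon induces, Ifih1 (-0.86), the RNA sensor MDA5, and Irf7 (-1.39), the factor that amplifies type I interferon, were among those that lost their calls without X2350.

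MHC class I presentation genes, which load and display peptides of the cell's own proteins, were called lower at 15 of 21 with a median of -0.67. The groups did not overlap at 10 of the 21. Over all genes 4.33% were called lower and the groups did not overlap at 8.42%. H2-K1, a classical class I heavy chain, had 2393, 3082, 2667, 1826 and 2438 normalized counts with Ang II and 3779, 4988, 4597, 4728 and 3741 with saline (log2 fold change -0.83, standard error 0.18, adjusted p = 0.0171). Tap1, a subunit of the peptide transporter of the endoplasmic reticulum, had 72.8, 164, 129, 75.5 and 127 and 182, 247, 182, 212 and 216 (log2 fold change -0.92, standard error 0.22, adjusted p = 0.0217). Psmb9, an immunoproteasome subunit, had 22.5, 59.8, 70.2, 28.7 and 59.6 and 90.5, 144, 96.0, 94.9 and 108 (log2 fold change -1.24, standard error 0.30, adjusted p = 0.0259). The heavy chain, the transporter and the protease were each lower in all treated mice than in any saline-treated mouse. Tapbp (tapasin, -0.50), Tap2 (-0.54), Erap1 (the peptide-trimming aminopeptidase, -0.46), H2-D1 (-0.73), H2-Q4 (-1.32) and H2-Q6 (-1.79) were lower and kept their calls without any 1 mouse, while B2m, the light chain, was lower at -0.51 and lost its call when X2350, X2358, X2359, X2372, X2373 or X2376 was left out. Reads of the H2 genes can be shared among paralogues. Without X2350, X2358, X2372, X2373 or X2376, 9 of the 21 were called, the same number as with the clock covariate.

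MHC class II genes, which professional antigen-presenting cells express, were called lower at 7 of 9 (77.8%, against 4.33% over all genes), with a median of -1.33. H2-Aa, an α chain, had 84.6, 239, 327, 287 and 339.9 normalized counts with Ang II and 761, 981, 740.1, 662 and 546 with saline (log2 fold change -1.65, standard error 0.36, adjusted p = 0.0153). Cd74, the invariant chain, had 281, 708, 746, 631 and 881 and 1569.9, 1928, 1518, 1370.0 and 1324 (log2 fold change -1.33, standard error 0.32, adjusted p = 0.0265). H2-Ab1 and H2-Eb1 had log2 fold changes of -1.53 and -1.52. No treated mouse reached the saline range of H2-Aa or Cd74, and X2350 held the lowest level of H2-Aa, H2-Ab1 and H2-Eb1. Leaving out single mice left 5 or 6 of the 9 called.

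Genes for the interferon-signalling factors themselves were read next. Of 24 STAT and IRF factors and receptors, 3 were called lower and none higher, and the median was -0.20. Irf1 (ENSMUSG00000018899.16, chromosome 11, 53770014 to 53778374), an interferon-induced factor that activates class I and GBP genes, had 228, 305, 355, 179 and 237 normalized counts with Ang II and 464, 569, 444, 559 and 618 with saline (log2 fold change -1.05, standard error 0.19, adjusted p = 0.00663), with no overlap between the groups, and kept its call without any 1 mouse. Irf7 and Ifngr2, the second chain of the interferon-γ receptor (-0.38), lost theirs without X2350. Ciita, the class II transactivator, was at a log2 fold change of -1.47 (adjusted p = 0.0683).

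**Figure D2:**
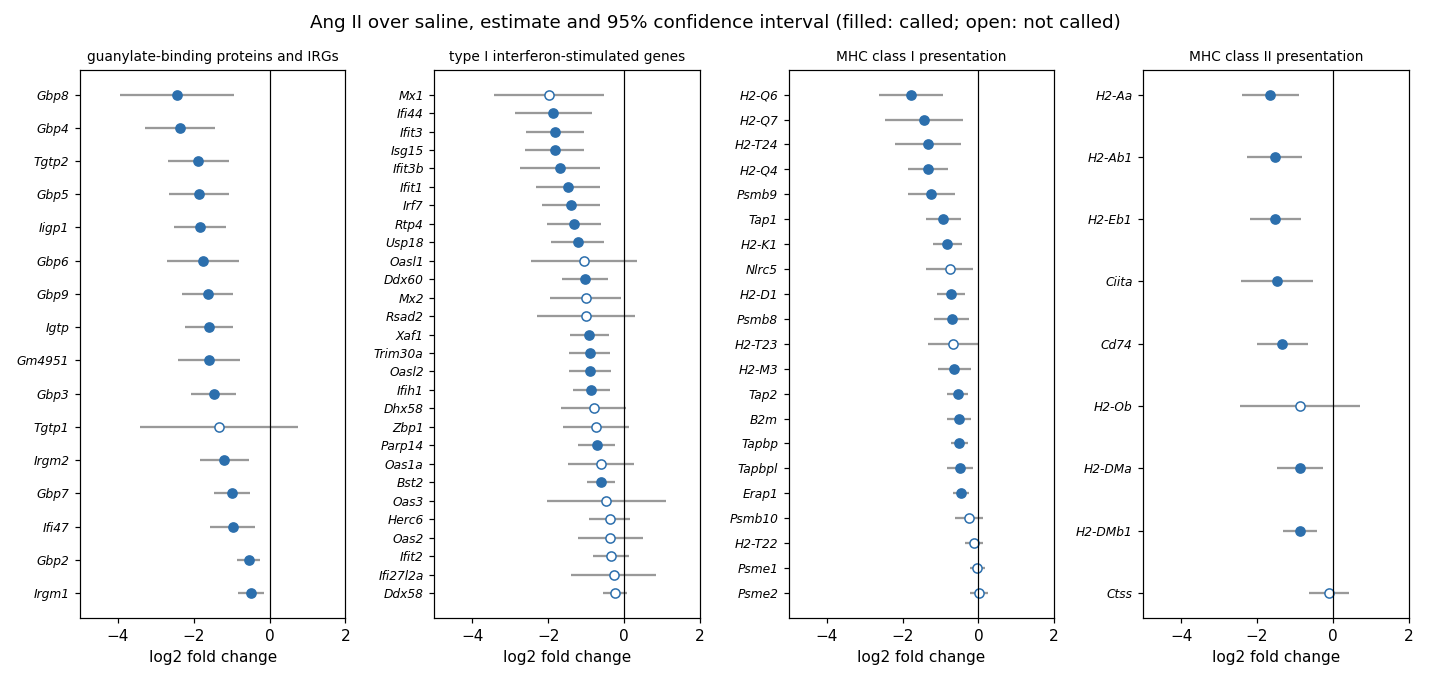
Log2 fold change (Ang II over saline, points) with its 95% confidence interval (lines) for every tested member of 4 lists in IKKβ+/+ mice, with called genes filled and others open. All 16 guanylate-binding protein and IRG genes lie below 0, and 15 of them are called.

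Cell type markers were read beside these falls, since in bulk tissue fewer cells of a type and less RNA per cell cannot be told apart. Of 20 macrophage markers, 1 was called, Lgals3 (galectin-3, 1.63), which rose, and the summed level of the list was 11585 to 15410 (lowest to highest mouse) with Ang II and 11177 to 14371 with saline. Only 6 of 18 neutrophil and lymphocyte markers were high enough to test and none was called, while Cd3d, Cd3e, Cd3g and Cd79a were below the filter. Endothelial markers were called lower at 5 of 20 with a median of -0.74, and their summed level was 19915 to 38458 with Ang II and 35089 to 58142 with saline. The part of endothelial or class II-expressing cells in the interferon-gene falls was not tested.

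Endothelial marker levels were lowest in X2350 and X2358. Vwf (von Willebrand factor) had 3082, 6645, 5660.3, 3039 and 6344 normalized counts with Ang II and 4985, 8942, 11676, 10378 and 9893 with saline, and was not called (adjusted p = 0.109). Pecam1, an adhesion molecule of endothelial junctions, had 7158, 11349, 11549, 5945 and 10843 and 10812, 15233, 16679, 14320.4 and 13098 (adjusted p = 0.202). At both genes some treated mice lay within the saline range. The called members were Tek (the angiopoietin receptor TIE2, -1.08), Ptprb (the endothelial phosphatase VE-PTP, -1.11), Cldn5 (a tight junction claudin, -1.16), Icam2 (-1.12) and Mmrn2 (-1.03), and none of the 20 was called without X2358. Of 15 leukocyte adhesion molecules, which include Icam2, it alone was called.

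Angiogenic ligands and tip-cell genes split, with 2 of 21 called higher (Pgf and Esm1, both above) and 4 lower. Calcrl (ENSMUSG00000059588.13, chromosome 2, 84330626 to 84425411), the receptor that with RAMP proteins binds CGRP and adrenomedullin, had 193, 565, 539.7, 306 and 341 normalized counts with Ang II and 807, 900.3, 1205, 1691 and 927 with saline (log2 fold change -1.56, standard error 0.27, adjusted p = 0.00469). All treated mice were below all saline-treated mice. Its partner Ramp2 was lower at -0.96, and lost its call without X2358. Angpt1, the TIE2 agonist made by mural cells, was lower at -1.43 and Nrp1, a VEGF co-receptor, at -0.53, both of which lost their calls without X2350, X2358, X2376 or X2378. In the Notch pathway, which links endothelium to smooth muscle, 3 of 15 members were called lower and none higher, with a median of -0.44. Hey2, a Notch target in arterial smooth muscle, had 651, 1259.5, 1049.8, 951 and 1032 normalized counts with Ang II and 1638, 1457, 1355, 1488 and 1427 with saline (log2 fold change -0.60, standard error 0.14, adjusted p = 0.018), again with no overlap, and the ligand Dll1 was lower at -1.74, losing its call without X2358. Of 26 vasoactive receptors and effectors, 1 (3.85%) was called higher and 2 (7.69%) lower, against 4.33% each way over all genes. Ptgs1 (the constitutive cyclooxygenase COX-1) fell, with a log2 fold change of -0.92, and Nos3 (endothelial nitric oxide synthase) was at -0.95 and Ptgs2 (the inducible COX-2) at 2.17, the calls of both lost without X2350 or X2358 among others.

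Part of the contractile programme was higher. Of 24 smooth muscle contractile genes 7 were called higher and none lower, 20 had a log2 fold change above 0, and the median was 0.28. Actg2 (ENSMUSG00000059430.14, chromosome 6, 83512905 to 83536265), the γ-actin of visceral smooth muscle, had 6164, 5106, 3667, 8161 and 4682 normalized counts with Ang II and 3286, 2574, 3015, 2234 and 1653 with saline (log2 fold change 1.11, standard error 0.23, adjusted p = 0.0119). Tpm2, β-tropomyosin, had 54684, 41036, 36463, 44137 and 39599 and 29869, 26002, 20759, 24682 and 22762 (log2 fold change 0.80, standard error 0.18, adjusted p = 0.0199). At both genes the lowest treated mouse was above the highest saline-treated mouse. Hspb6, a small heat shock protein that modulates relaxation, and Ppp1r14a, the CPI-17 inhibitor of myosin phosphatase, were higher by 0.62 and 0.67. These 4 genes kept their calls without any 1 mouse. Cnn1 (calponin, 0.82) lost its call without X2350, and Tagln (0.66) and Des (desmin, 0.86) lost theirs without X2350 or X2358 among others. Acta2 and Myh11 were at 0.44 and 0.21 and were not called (adjusted p = 0.393 and 0.692). The count was 4 without X2350 and 4 with the clock covariate.

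The actin cytoskeleton moved the same way, with 11 of 28 genes of actin, tubulin and focal adhesions called higher, none lower and a median of 0.38. The share called higher was 39.3%, against 4.33% over all genes. Itga5 (ENSMUSG00000000555.8, chromosome 15, 103344286 to 103366763), the α chain of the fibronectin receptor, had 40198, 11302, 8045, 20794 and 12032 normalized counts with Ang II and 3847, 4643, 8698, 4245 and 3549.9 with saline (log2 fold change 1.72, standard error 0.37, adjusted p = 0.0148). Tubb6, a β-tubulin, had 3367, 1353, 827, 2241 and 1363 and 761, 753, 829, 771 and 638 (log2 fold change 1.12, standard error 0.26, adjusted p = 0.0186). Pfn1, the actin-binding profilin, had 7441, 5420.0, 4597, 7864 and 5137 and 3970.4, 3811, 3267, 3911 and 3529 (log2 fold change 0.69, standard error 0.14, adjusted p = 0.0124). The groups were apart at Pfn1, while X2356 lay within the saline range at Itga5 and Tubb6. All 3 kept their calls without any 1 mouse, but tubulin genes can share reads. Tpm4 (0.72) and Cfl1 (cofilin, 0.47) lost their calls without X2350 or X2358. Only 4 of the 28 were called without X2350, and 4 without X2358. Of 17 targets of the mechanosensitive YAP and TAZ coactivators, Nuak2 was called higher (0.93) and Nt5e lower (-0.98). That is 5.88% in each direction, against 4.33% over all genes. Ccn2, connective tissue growth factor, ranged from 37336 to 186061 normalized counts with Ang II and from 24150.5 to 61053 with saline. It was not called (adjusted p = 0.142).

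Of 19 collagen chains 1 was called, Col4a5, a basement membrane chain, which fell (-0.87). This count changed with the method, to 4 higher and 4 lower with DESeq2, 2 and 3 with edgeR or with the 10 IKKβ+/+ mice fitted alone, 5 and 4 with array quality weights, and 4 and 2 without X2356. Col1a1 and Col3a1 stood at log2 fold changes of -0.33 and -0.68 (95% confidence intervals -0.76 to 0.10 and -1.23 to -0.13, adjusted p = 0.384 and 0.142). Col3a1 was lower in all treated mice than in any saline-treated mouse, as was Col1a2 (-0.53, adjusted p = 0.1655), and neither was called. The groups did not overlap at 4 of the 19 chains, against 8.42% of all genes. The enzymes that modify collagen were called higher at 5 of 20. Loxl3, a lysyl oxidase-like crosslinking enzyme, had 1693, 1515, 1392, 1731 and 1736 normalized counts with Ang II and 1187, 1205, 1204, 1099 and 1108 with saline (log2 fold change 0.47, standard error 0.09, adjusted p = 0.0102). It did not overlap between the groups and was the member still called when any 1 mouse was left out. Loxl4 (another lysyl oxidase-like enzyme), Tgm2 (tissue transglutaminase, 0.89), Plod2 and Plod1 (lysyl hydroxylases, 0.48 and 0.30) lost theirs without X2358.

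Elastic fibre genes, which encode elastin, its microfibrils and its crosslinking proteins, had 3 of 15 called lower and none higher. Fbln5 (ENSMUSG00000021186.9, chromosome 12, 101746565 to 101819055), fibulin-5, which guides elastin onto microfibrils, had 7631, 12676, 8843, 6828 and 8380.2 normalized counts with Ang II and 16168, 17963, 19795, 17162 and 17531 with saline (log2 fold change -1.03, standard error 0.14, adjusted p = 0.000988). Ltbp4, a TGF-β-binding protein that also serves elastogenesis, had 8731, 13411, 13789, 9142 and 14375 and 16702, 20177, 21917, 17981 and 21865 (log2 fold change -0.75, standard error 0.16, adjusted p = 0.0137). All 5 treated mice were below all 5 saline-treated mice at both genes. Ltbp3 was lower at -0.46 and lost its call without X2358. Eln (elastin), Fbn1 (fibrillin-1) and Lox (lysyl oxidase) were at 0.06, -0.04 and 0.33 and were not called (adjusted p = 0.92, 0.947 and 0.373).

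Proteoglycans split, with 3 of 23 called higher and 5 lower. Ogn (osteoglycin), a small leucine-rich proteoglycan, had 7846, 15033, 14690.5, 9919 and 13104 normalized counts with Ang II and 26051, 29255, 29608, 23800.5 and 24136 with saline (log2 fold change -1.17, standard error 0.20, adjusted p = 0.00407). Hapln1, the link protein that ties aggrecan-type proteoglycans to hyaluronan, had 33.2, 82.2, 58.1, 38.2 and 53.7 and 188, 99.2, 116, 136 and 152 (log2 fold change -1.40, standard error 0.28, adjusted p = 0.0104). Neither gene overlapped between the groups. Lum (lumican, -1.27) and Fmod (fibromodulin, -1.05) had the same direction but lost their calls without X2350 or X2358 among others, and Sdc1 (syndecan-1) was lower at -0.66. On the other side, Has1, a hyaluronan synthase, had 333, 14.9, 47.2, 267 and 128 and 2.66, 9.53, 7.05, 56.0 and 18.3 (log2 fold change 2.93, standard error 0.74, adjusted p = 0.032), with X2352 and X2356 within the saline range, and its call was lost without X2350 or X2358. Fibroblast markers, which include Lum, had a median of -0.52 with 2 of 16 called lower, and their summed level was 62458 to 166683 with Ang II and 134556 to 165781 with saline. Their part in the proteoglycan falls was not tested.

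Matricellular proteins, which signal from the matrix without building it, had 3 of 18 called higher and 1 lower. Postn (periostin) had 115489, 103053, 69269.9, 113188 and 68004 normalized counts with Ang II and 48111, 51986, 60211, 55119.5 and 41490.4 with saline (log2 fold change 0.84, standard error 0.19, adjusted p = 0.0199), with no overlap. Ccn3 was higher by 0.82, Ccn5 by 0.69 (lost without X2350), and Thbs2 was lower at -0.70. Thbs1, which activates latent TGF-β, had 15084, 13755, 4582, 28213 and 25388 and 5750.0, 5229.7, 9117, 5519 and 3198 and was not called (log2 fold change 1.43, adjusted p = 0.128), with the treated mouse X2356 below several saline-treated mice.

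Metalloproteinases and their TIMP inhibitors split by member. Of 28 metalloproteinases and inhibitors 6 were called higher and 4 lower. Timp1 (ENSMUSG00000001131.11, chromosome X, 20870166 to 20874735) had 1444, 419.5, 777, 2861 and 974 normalized counts with Ang II and 314, 358, 296, 349 and 331 with saline (log2 fold change 1.68, standard error 0.36, adjusted p = 0.015). Timp4 had 864, 463, 468, 685 and 768 and 469.8, 287, 193, 234 and 285 (log2 fold change 1.16, standard error 0.25, adjusted p = 0.0151), and Timp2 was lower at -0.47, its call lost without X2350 or X2358 among others. All treated mice were above all saline-treated mice at Timp1, while at Timp4 the groups overlapped at their edges. Adam10, a sheddase, was lower at -0.50 and kept its call without any 1 mouse, and Adam17, the TNF-converting sheddase, was lower at -0.38 and lost its call without X2350 or X2358 among others. Mmp3 (stromelysin-1, 0.91) and Adamts1 and Adamts9 (1.05 and 1.03) were called higher and lost their calls without X2358 among others, and Mmp2, the constitutive gelatinase, was at -0.60 (adjusted p = 0.2). In the plasminogen system Plaur (ENSMUSG00000046223.10, chromosome 7, 24462484 to 24475968), the urokinase receptor, had 917, 262, 222, 720.4 and 374 and 124, 134, 189, 146 and 121 (log2 fold change 1.59, standard error 0.32, adjusted p = 0.00991), and its groups did not overlap. Anxa2, a plasminogen-binding annexin, was higher by 0.82, and Serpine2, an inhibitor of thrombin and urokinase, was lower at -0.63.

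**Figure D3:**
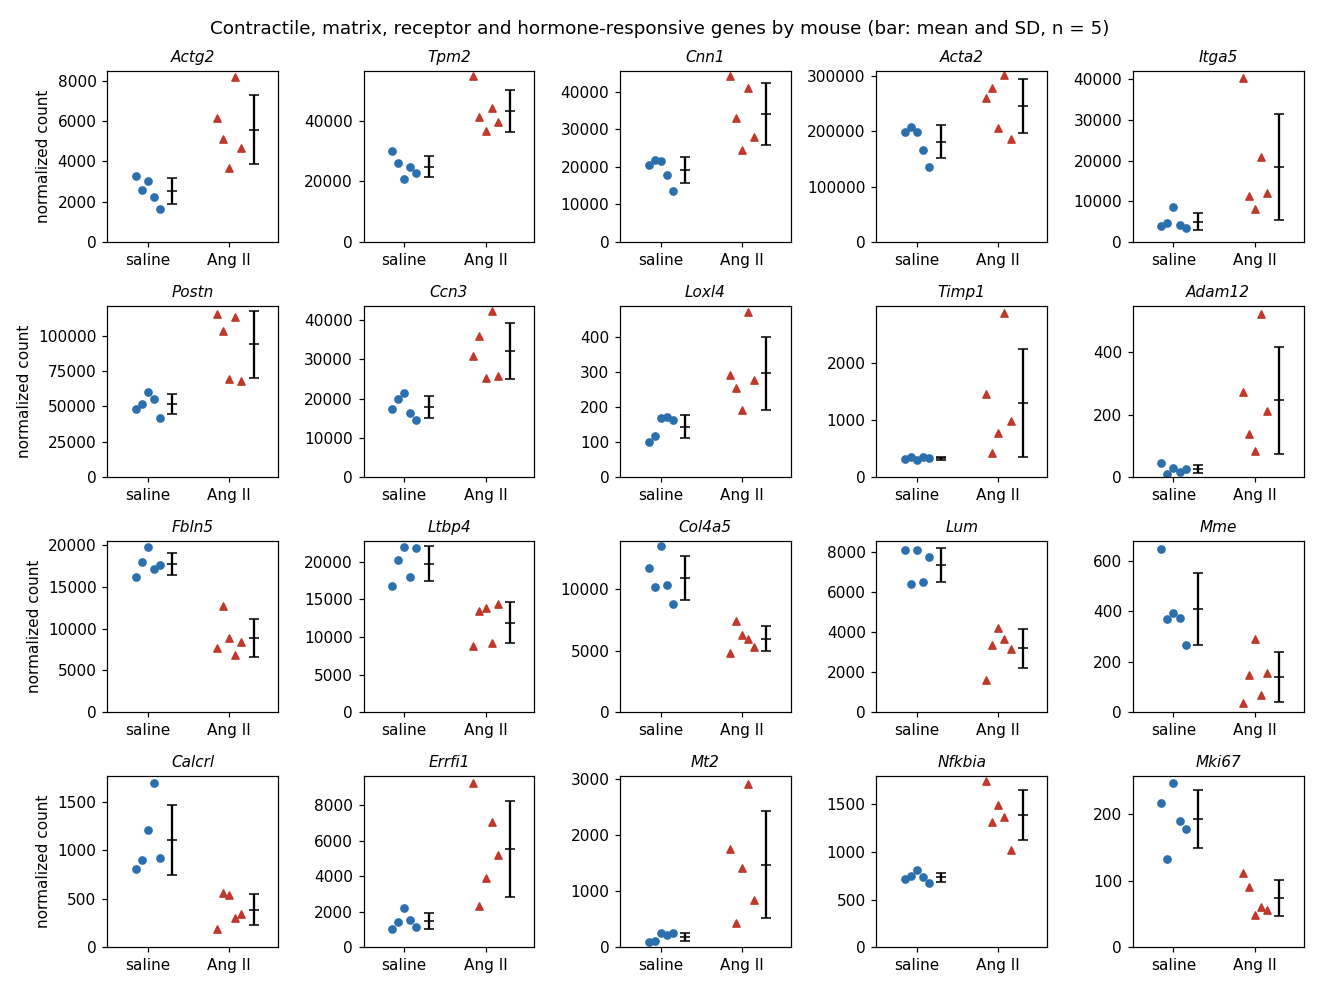
Normalized counts (linear axes from 0) of 20 contractile, matrix, receptor and hormone-responsive genes, with 1 point for each mouse and bars for the mean and SD (n = 5). Fbln5 is lower in all 5 treated mice than in any saline-treated mouse, and Timp1, Adam12 and Mt2 are highest in X2358.

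Calls in cytokine and growth factor families are set beside the 4.33% called higher and 4.33% called lower over all genes. The shares were 23.1% and 15.4% in the IL-6 family and 10% and 3.33% in growth factor genes. In TGF-β and BMP signalling they were 8.82% and 2.94%. In the IL-6 family, with 3 of 13 called higher and 2 lower, Il11 (above) rose, and Osmr, the oncostatin M receptor, was higher by 0.45 while Lifr, the LIF receptor, and Il11ra1, the IL-11 receptor α chain, were lower at -0.57 and -0.42, the last 3 with calls lost without X2350 or X2358 among others. Il6 itself stood at 116, 6.40, 10.97, 164 and 7.95 normalized counts with Ang II and 0.665, 0, 7.05, 16.1 and 3.98 with saline and was not called (log2 fold change 2.74, standard error 1.02, adjusted p = 0.128). Only X2350 and X2358 lay clearly above the saline range at Il6. Growth factor genes had 3 of 30 called higher and 1 lower, with Igfbp2 as above, Igf1 at 0.64, Hbegf, an EGF-receptor ligand, at 1.01 and Pdgfd at -0.50, all lost without X2358. In TGF-β and BMP signalling 3 of 34 were called higher and 1 lower. Fstl3, a secreted inhibitor of activin and myostatin, had 5681, 3745, 2342, 4071 and 3347 and 1915, 1957, 1909, 1425 and 1523 (log2 fold change 1.09, standard error 0.24, adjusted p = 0.0171), all treated mice being above all saline-treated mice. Inhba, the activin A chain, was higher by 0.79, lost without X2350 or X2358 among others, and Tgfb1 was at 0.05 (adjusted p = 0.88).

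Of 16 tested chemokines, 3 were called higher: Ccl6 (1.24), Ccl9 (0.86) and Cxcl14 (1.91), none of them without X2358. Ccl2, the main monocyte attractant, had 77.1, 13.9, 39.5, 235 and 25.8 normalized counts with Ang II and 39.9, 10.3, 63.4, 34.2 and 16.7 with saline (adjusted p = 0.535). Of 20 NF-κB subunits and feedback genes, Nfkbia (ENSMUSG00000021025.8, chromosome 12, 55489410 to 55492647), which encodes IκBα, was called higher, with 1744, 1319, 1489.7, 1365 and 1021 and 720.1, 746, 809.8, 735 and 681 (log2 fold change 0.89, standard error 0.18, adjusted p = 0.0107), and Tnfaip2 lower (-0.93). Nfkbia was higher in every treated mouse than in any saline-treated mouse, and both kept their calls without any 1 mouse. Nfkb1 was at -0.03 (adjusted p = 0.898). The calls in the NF-κB list came to 5% in each direction, against 4.33% over all genes. Complement had 1 of 21 called in each direction (4.76%, against 4.33% over all genes), Masp1 above and C2 (-0.83). The call of C2 was lost without X2350, X2358 or X2378.

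Genes known to be induced by glucocorticoids rose, with 10 of 16 called higher, none lower and a median of 1.01. Mt2 had 1756, 442, 1423, 2917 and 848 normalized counts with Ang II and 91.8, 117, 261, 216 and 250.3 with saline (log2 fold change 2.82, standard error 0.48, adjusted p = 0.00407). Errfi1 (ENSMUSG00000028967.10, chromosome 4, 150853919 to 150868892), a feedback inhibitor of the EGF receptor, had 9230.5, 2326, 3917, 7039 and 5229 and 1047, 1447, 2237, 1551 and 1136 (log2 fold change 1.80, standard error 0.36, adjusted p = 0.0102). Cdkn1a, the cyclin kinase inhibitor p21, had 3243, 1374, 1386, 2282 and 1341 and 1096, 1177, 958, 718 and 609 (log2 fold change 1.02, standard error 0.24, adjusted p = 0.0204). At these 3 genes the groups did not overlap, which the choice above had required of Mt2. Several of the list's genes also answer other stimuli: Lcn2 (lipocalin-2, 2.15) and Nfkbia are NF-κB targets, and Mt1 and Mt2 respond to metals. Pdk4, which blocks pyruvate entry to mitochondria, was higher by 1.06, and Mt1 was also called higher. The narrower targets Fkbp5 (1.05), Sgk1 (1.05) and Ddit4 (0.96) were called but lost their calls without X2358. The count was 7 without X2358 and 9 with the clock covariate, and steroid levels were not measured.

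Immediate early genes, which peak within an hour of a stimulus and also during tissue handling, had 3 of 26 called higher and 2 lower. Maff, a small MAF factor, was higher by 1.27 and kept its call without any 1 mouse, Nr4a2, an orphan nuclear receptor, lost its call without X2350, and Myc (1.62) and Fos (-1.71) lost theirs without X2350 or X2358 among others. No member of 15 ERK feedback genes was called. Within the angiotensin system 2 of 14 genes were called lower. Mme, the membrane peptidase neprilysin, which degrades angiotensins, had 37.5, 147, 291, 67.8 and 155 normalized counts with Ang II and 648, 368, 394, 373 and 265 with saline (log2 fold change -1.81, standard error 0.45, adjusted p = 0.0299). Nr3c2, the mineralocorticoid receptor, had 88.9, 147, 254, 118 and 222 and 376, 307, 347, 471 and 459 (log2 fold change -1.32, standard error 0.26, adjusted p = 0.00835). Agtr1a, the main AT1 receptor gene, had 44.98, 20.3, 263, 33.4 and 56.7 and 36.6, 25.4, 45.8, 33.2 and 43.0 (adjusted p = 0.538), with X2356 standing alone. The treated mice were below the saline-treated mice at Nr3c2, while X2356 was within the saline range at Mme. Ion channel and calcium handling genes had 1 of 25 (4%) called higher, Kcnk3 (1.08). In the same list 2 (8%) were called lower, Kcnn4 and Kcnq1 (-0.88 and -0.97). Over all genes the share was 4.33% in each direction. None of these ion channel calls held without X2350 or without X2358.

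Several metabolic lists had calls in 1 direction. Of 21 enzymes of cholesterol synthesis 12 were called higher and all 21 lay above 0, with a median of 0.89. Hmgcs1, the synthase that commits acetyl-CoA to the pathway, had 3484, 1031, 1529, 1759.9 and 1448 normalized counts with Ang II and 1404, 647, 719, 831 and 689 with saline (log2 fold change 1.04, standard error 0.25, adjusted p = 0.0215). Lrp8 (ENSMUSG00000028613.15, chromosome 4, 107801869 to 107876840), a receptor for reelin and apolipoprotein E, had 457, 161, 134, 326 and 212 and 58.6, 58.0, 62.6, 75.0 and 65.4 (log2 fold change 1.85, standard error 0.29, adjusted p = 0.00203). Vldlr was lower at -0.63, lost without X2350. X2370, on saline, lay among the treated mice at Hmgcs1, and the groups did not overlap at Lrp8. The cholesterol count was 6 without X2350 and 5 with the clock covariate. The sterol regulatory element core TCACNCCAC was held by 1 of 16 list genes with a promoter, Hmgcs1, and by 1.44% of all genes with a promoter. The CCAAT box, CCAAT, was held by 15 of 16 (93.8%) against 41.1% of all genes with a promoter. The Hmgcs1 window, at chr13:119690184-119690252, plus strand, is shown as the 1 promoter of the list with the sterol core, which is in capitals.
Hmgcs1: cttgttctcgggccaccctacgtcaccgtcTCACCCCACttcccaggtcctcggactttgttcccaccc

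Glycolysis genes had 6 of 17 called higher and none lower, with a median of 0.34. Eno1 (enolase) had 1426, 1050.3, 908, 1339 and 916 normalized counts with Ang II and 799.9, 685, 565, 624 and 708 with saline (log2 fold change 0.72, standard error 0.15, adjusted p = 0.0122), with no overlap. Gapdh was higher by 0.65, and Slc16a3, the lactate exporter MCT4, by 0.79 (lost without X2358), and Pkm (0.47), Ldha (0.46) and Tpi1 (0.35) lost their calls without X2350 or X2358. Gapdh and Eno1 have many processed pseudogenes that can share reads. Antioxidant genes had 5 of 22 called higher and none lower. Gpx1 (ENSMUSG00000063856.7, chromosome 9, 108338903 to 108340343), glutathione peroxidase, had 5367, 4719, 5174, 5456 and 4473 and 2932, 3490.2, 3260.2, 3391 and 2994 (log2 fold change 0.65, standard error 0.09, adjusted p = 0.00137), and Txn1, thioredoxin, was higher by 0.52, both kept without any 1 mouse, while 2 of the 22 were called without X2350 or without X2358. Every treated mouse exceeded every saline-treated mouse at Gpx1.

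Targets of ATF4, the factor of the amino acid and integrated stress response, were called higher at 7 of 20 with none lower and a median of 0.34. Asns (ENSMUSG00000029752.12, chromosome 6, 7675169 to 7693254), asparagine synthetase, had 242, 169, 223, 185 and 112 normalized counts with Ang II and 98.5, 59.5, 86.3, 52.2 and 50.2 with saline (log2 fold change 1.42, standard error 0.28, adjusted p = 0.0089). Psat1, of serine synthesis, had 336, 270.0, 244, 389 and 236 and 188, 108, 134, 115 and 138 (log2 fold change 1.11, standard error 0.20, adjusted p = 0.00601). Mthfd2, a mitochondrial folate enzyme, had 1005, 567, 529.8, 702 and 545 and 267, 296, 399, 162 and 197 (log2 fold change 1.36, standard error 0.27, adjusted p = 0.00868). All treated mice were above all saline-treated mice at these 3 genes, which kept their calls without any 1 mouse, and Chac1, which degrades glutathione, was higher by 1.56 but lost its call without X2350 or X2358 among others. The amino acid response element core TGATGNAA was held by 5 of 17 list genes with a promoter (29.4%) against 4.51% of all genes with a promoter. Only 2 of the 7 called members with a promoter held it. Windows of Asns (chr6:7693195-7693262, minus strand) and Chac1 (chr2:119351019-119351086, plus strand) are shown because both genes were called, with the core or its reverse complement in capitals.
Asns: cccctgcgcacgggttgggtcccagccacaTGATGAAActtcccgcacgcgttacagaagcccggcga
Chac1: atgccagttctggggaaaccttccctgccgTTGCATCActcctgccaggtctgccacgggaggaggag

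Genes of nucleolar ribosome assembly had 6 of 36 called higher, all 36 log2 fold changes above 0 and a median of 0.38. Bop1 and Nhp2, both pre-rRNA processing factors, were higher by 0.82 and 0.83 and kept their calls without any 1 mouse, and the count was 2 without X2350 or X2358 and with the clock covariate, 3 without X2370, X2376 or X2378, 10 with edgeR or array quality weights, 16 with DESeq2 and 17 without X2356. Endoplasmic reticulum chaperones had 4 of 28 called higher with a median of 0.32, among them Derl3 (2.49), of ER-associated degradation, and Sdf2l1 (0.90), and the count ran from 0 (without X2358, without X2378 and with the clock covariate) to 9 without X2356, 10 without X2372 and 12 with array quality weights. Derl3 stood at only 2.98 to 31.5 normalized counts with Ang II and 0 to 3.97 with saline. The groups overlapped at Derl3, and its call was lost without X2358 or X2378. Elovl1, which elongates fatty acids, was the 1 called of 17 fatty acid synthesis genes (0.77).

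Some proliferation genes were lower. Of 21 mitosis genes 4 were called lower and 19 lay below 0, with a median of -1.22. Mki67, the proliferation marker, had 112, 90.7, 48.3, 61.1 and 56.7 normalized counts with Ang II and 218, 133, 248, 191 and 178 with saline (log2 fold change -1.42, standard error 0.35, adjusted p = 0.0267), and was the member that kept its call without any 1 mouse. The number called lower was 1 without X2350, X2358, X2370, X2373 or X2376 and with the clock covariate, 2 without X2359, X2378 or the filter on low values, 9 with array quality weights and 11 with the 10 IKKβ+/+ mice fitted alone. The summed level of the list was 365 to 825 with Ang II and 857 to 1411 with saline. No treated mouse reached the saline range of Mki67. Of 23 DNA replication and G1 genes, Cdkn1a and Pcna (0.37) were called higher and Ccnd2, cyclin D2, lower (-0.46).

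Across the 52 lists, 5 had no called member: ERK feedback, heat shock and cold-inducible genes, adipocyte markers, the morning arm of the clock, and neutrophil and lymphocyte markers. In the evening arm of the clock 1 of 11 genes was called lower, Hlf (-1.29), against 5 with edgeR or DESeq2, 4 without X2370, 6 without X2372 and 0 without X2350, X2358, X2373, X2376 or X2378, and the list's median of -0.53 became -1.06 without X2372. Among Krueppel-like factors, Klf3 (-0.47) and Klf10 (-0.68) were called lower, the latter not without X2350 or X2358 among others. Striated muscle genes had a call in each direction, Ckm above and Mybpc2 (a myosin-binding protein, -1.63). Neuronal markers and autophagy genes each had a single call, Uchl1 (a neuronal ubiquitin hydrolase, 0.86) and Gabarap (of autophagosome formation, 0.35, lost without X2350). The 52 lists hold 993 tested genes, of which 223 were called, against 8.66% of all genes tested. The lists were chosen with earlier results of these data known, so this count is a description and tests nothing.

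**Figure D4:**
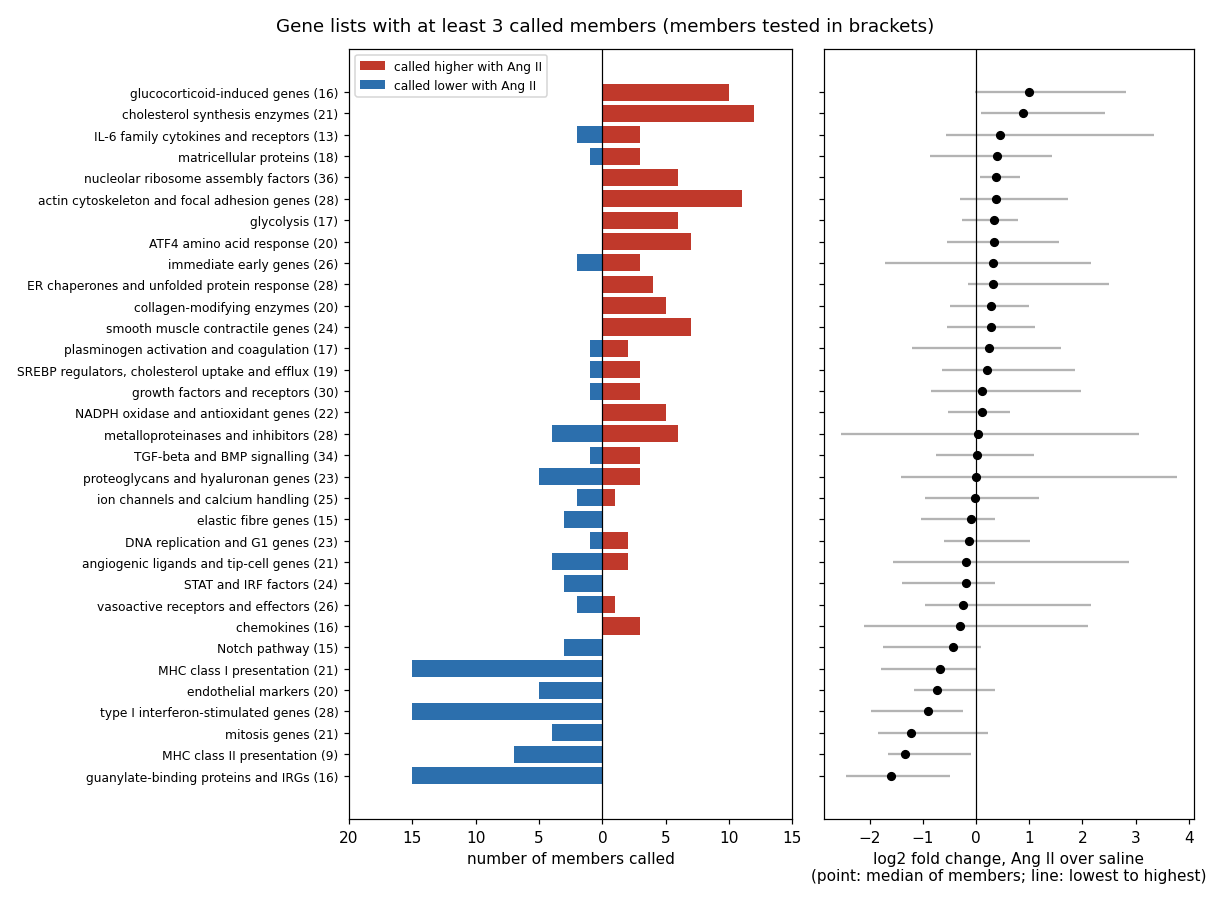
Left, number of members called higher (to the right of 0) and lower (to the left) with Ang II in each of the 33 lists with at least 3 calls. Right, the median log2 fold change of the members with the lowest and highest as a line. The longest bars are the 15 falls in each of 3 interferon-related and class I lists and the 12 rises in cholesterol synthesis.

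The same comparison in IKKβ-/- mice, which shares no mice with this one but shares its estimate of the spread, was set beside these values. Of the 30 rises and falls chosen above, 29 had the same sign in IKKβ-/- mice and 15 were called in the same direction there. They were chosen in IKKβ+/+ mice, and the same shares over all genes were not computed. These counts are therefore given only as a description. By lists, the median log2 fold changes were -1.59 in IKKβ+/+ and -0.84 in IKKβ-/- mice for guanylate-binding proteins and IRGs, -0.67 and -0.26 for MHC class I genes, and -1.22 and -1.35 for mitosis genes. For cholesterol synthesis they were 0.89 and 0.07, for contractile genes 0.28 and -0.17, for actin and focal adhesion genes 0.38 and -0.08, and for glucocorticoid-induced genes 1.01 and 0.30. Individual values side by side were 1.72 and 0.00 for Itga5, 1.59 and 0.29 for Plaur, 1.80 and -0.13 for Errfi1, 0.89 and 0.06 for Nfkbia, -1.03 and -0.79 for Fbln5, and -2.36 and -2.07 for Gbp4. No gene passed the adjusted test for a difference between the genotypes in limma (smallest adjusted p = 0.215), although 1654 genes had an unadjusted p below 0.05. With edgeR 3 genes passed and with DESeq2 279. By limma's test none of these values was shown to differ between the genotypes.

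**Figure D5:**
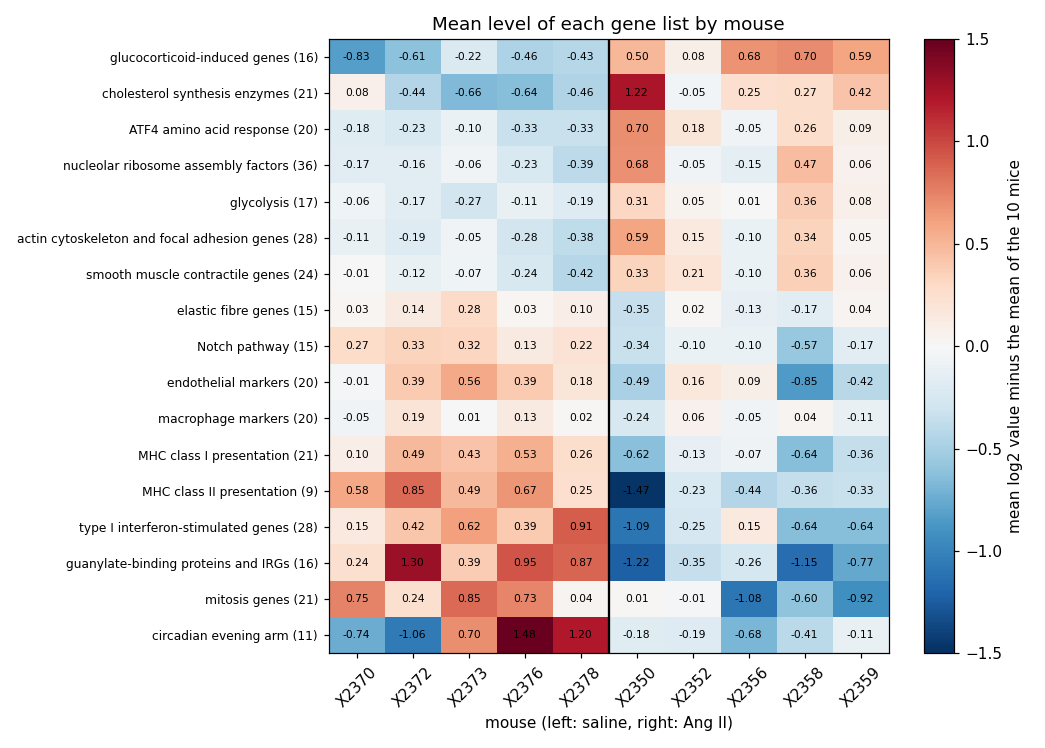
Mean log2 value of each list's tested members in each mouse (columns, saline left and Ang II right), minus the mean of the 10 mice, as colour and number. At MHC class II genes X2350 reads -1.47 against -0.44 to -0.23 in the other treated mice, and X2356 reads 0.15 at type I interferon-stimulated genes, level with the lowest saline-treated mouse.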

How the data were processed

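The values analysed are normalized counts deposited by the authors, a signal on the scale of reads divided by a size factor. Per the study's methods and the labels, stranded poly(A) libraries were sequenced single-end, trimmed with Trimmomatic 0.35, aligned with STAR 2.7.1a to GRCm38 and normalized with DESeq2 1.30.1. Whole reads could be recovered from 100% of the values within 0.1 of a read and gave the depths. Genes at 10 or more in at least 4 of 19 mice were tested on log2(value + 1) with limma 3.58.1 (R 4.3.3), in 1 fit of all 4 groups with empirical Bayes trend and Benjamini-Hochberg adjustment. The code was tested on simulated data. edgeR 4.0.16 and DESeq2 1.42.0 were run on the recovered reads as alternatives. Named genes were the 15 largest called rises and falls averaging at least 50 whose groups did not overlap, and up to 4 called members of each list. The member with the highest mean in each list was added, as was a fixed set from the study's qPCR panels or chosen to anchor a list. Further list members were named to describe their list. The mice, lists and tests were chosen with earlier results of these data known. Promoters came from RefSeq (GRCm38.p6), and genes without an entry were not searched. Libraries of the same group differed well beyond counting noise, so each was 1 replicate. A few genes that met these rules are not reported here.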

Additional observations from a re-analysis of the deposited data

Results flagged for a closer look

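In 21 of 440 groups examined (4.773%, 220 named genes in both groups), the extreme mouse stood apart from the other 4 by Dixon's criterion for 5 samples (0.71), which chance alone exceeds in about 1 group in 20. X2350 was the mouse in 8 of these. At the class II genes it held 84.6 normalized counts of H2-Aa against 239 to 339.9 in the other treated mice, 91.0 of H2-Ab1 against 189 to 252, and 94.2 of H2-Eb1 against 229 to 261. X2350 was also low at Col3a1 (68219.6 normalized counts against 95321 to 105308) and at the lysosomal membrane gene Lamp1 (7141 against 8736 to 9323). It was high at the chaperone gene Hsp90ab1 (21259 against 13284 to 14884), at Gabarap (4894 against 3849 to 4079.7) and at Nuak2 (94.2 against 59.2 to 66.2).

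The remaining treated mice stood apart at H2-Q4 (177.7 normalized counts in X2358 against 349 to 454), at Serpine2 (7717 in X2359 against 10946 to 12397) and at the autophagy gene Atg5 (402.6 in X2356 against 449 to 455). Among saline-treated mice, X2376 had 0 normalized counts of Fdps against 7.05 to 14.3, 14.2 of Lcn2 against 7.14 to 7.99, 98.7 of Unc5d against 62.6 to 70.7, and 128 of C2 against 171 to 185. Fdps encodes farnesyl diphosphate synthase, and its reads may be shared with pseudogenes. X2370 had 545 normalized counts of Icam1 against 756 to 861, 435 of Ptgs1 against 616 to 686, and 6.66 of Masp1 against 22.2 to 34.2. X2378 had 5289 of Ncam1 against 3858 to 4080.2 and 122 of Slc4a10 against 211 to 242. X2372 had 5186 normalized counts of Ccn5 against 3678 to 4027.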

How the results depend on the processing

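Leaving out single mice of either genotype gave 209 to 986 genes higher (lowest without X2350, highest without X2356) and 219 to 929 lower, likewise. DESeq2 called 1054 higher, array quality weights 1005 higher and 1069 lower, the 10 IKKβ+/+ mice alone 982 lower, and the clock gene score, an alternative chosen after seeing the data, 247 higher and 278 lower. The other scalings, pseudocounts and filters stayed within 1.5 times of the main counts, and no named gene changed sign while called. Of the 164 named genes called, 160 were called by edgeR, 164 by DESeq2, 163 with TMM scaling, 111 with the clock score, 96 without X2350 and 94 without X2358. Leaving out a single IKKβ-/- mouse kept 155 to 164 of these calls. For the difference between genotypes, where limma called none, edgeR called 3, DESeq2 279 and array weights 76, and leaving out single mice gave 0 to 79. The cause of these shifts was not tested. No paired analysis was possible because the groups share no mouse numbers. The 5 mice a group and the unequal response of the treated mice limit the calls, and low genes rest on few reads.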
